A study of Mus musculus with 282 samples.

Results

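The 6 genes described here act where sugar enters hepatocyte metabolism and where it is sensed. Slc2a2 encodes GLUT2, the main glucose transporter of the hepatocyte membrane, and Gckr encodes a regulatory protein that restrains glucose phosphorylation in the hepatocyte during fasting. Khk encodes ketohexokinase, the first enzyme of fructose use, and Pklr encodes the pyruvate kinase of liver, the last step of glycolysis. Mlxipl encodes ChREBP, a transcription factor that responds to sugar phosphates, and Txnip encodes an arrestin-like protein that lowers glucose uptake and is itself a ChREBP target. They were taken by symbol from both expression tables of the series, and are 6 of the 15907 genes the tables list.

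As background, GLUT2 lets glucose pass in both directions, so uptake by the liver follows glucose phosphorylation, which the Gckr product restrains and fructose 1-phosphate releases. ChREBP pairs with its partner Mlx on carbohydrate response elements of Pklr, Txnip and lipogenic genes when sugar phosphates accumulate. In liver the pathway is known for its link to feeding, and its genes are read here against the time of day, the feeding pattern, the clock and mTOR, the growth kinase whose complex 1 senses amino acids and insulin.

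The data are 3′ tag RNA-seq libraries of the liver lateral lobe of male C57BL/6J mice kept singly under 12 h of light and 12 h of dark. Time is zeitgeber time (ZT), in hours after lights on. Of 282 libraries in 16 arms, 13 arms were sampled at ZT 2, 6, 10, 14, 18 and 22 with 3 mice a time (18 libraries an arm). The other 3 arms received tunicamycin, which blocks protein glycosylation and stresses the endoplasmic reticulum, and were sampled at ZT 4, 10, 16 and 22 with 4 mice a time (16 libraries an arm). Wild-type (WT) mice fed at night were uninjected, injected with vehicle or injected with rapamycin, an inhibitor of mTOR complex 1, and whole-body Bmal1 knockouts (BMKO), which lack a core clock activator in every tissue, went through the same 3 treatments under night feeding. Uninjected WT mice were also fed ad libitum or arrhythmically, that is, spread over day and night, and arrhythmically fed WT mice were injected at dawn or at dusk with AZD8055, which inhibits the mTOR kinase in both of its complexes. Their comparison arm was not injected, so injection and drug cannot be told apart there. Liver-specific knockouts of Tsc1 (TSKO), which lose a brake on mTOR complex 1, and of Raptor (RPKO), which lose a subunit of that complex, were night-fed and uninjected and were compared with night-fed Albumin-Cre mice, a Cre driven by the promoter of a hepatocyte gene. The tunicamycin arms were night-fed WT, arrhythmically fed WT and arrhythmically fed WT with AZD8055 at dusk. The sources used here do not give ages, doses or injection hours.

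All 6 genes lie on the forward strand of the GRCm38 build. In the GENCODE M21 annotation Slc2a2 spans chr3:28697903-28731359, Pklr chr3:89136142-89146784 and Txnip chr3:96557957-96561883. Khk spans chr5:30921431-30931248, Gckr chr5:31297443-31327314 and Mlxipl chr5:135089890-135138382. The libraries read the 3′ ends of transcripts, so 1 value a gene covers isoforms that share an end.

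All 6 matched the RefSeq promoter table (GRCm38.p6), which gives 8 windows for them, each from 250 bases before a transcription start to 50 bases after it. Pklr, Txnip and Khk were picked as examples of sugar-response, forkhead or E-box letters, and their differences between arms are described below. Mlxipl also carries such letters and is not shown. In Pklr the capitals mark a carbohydrate response element, the paired site that ChREBP and Mlx bind, found 170 bases before the start of the downstream transcript. In Txnip they mark GTAAACA, a forkhead motif, 121 bases before the start and 2 copies of CACGAG at 85 and 74 bases before it. In Khk they mark CACGTG, the palindromic E-box, 71 bases before the start.
Pklr, chr3:89136373-89136672, forward strand: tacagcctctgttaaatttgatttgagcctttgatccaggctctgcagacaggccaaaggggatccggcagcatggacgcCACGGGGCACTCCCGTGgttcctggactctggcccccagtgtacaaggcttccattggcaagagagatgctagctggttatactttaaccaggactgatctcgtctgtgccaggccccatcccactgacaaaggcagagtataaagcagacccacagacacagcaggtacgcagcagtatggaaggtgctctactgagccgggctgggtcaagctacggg
Txnip, chr3:96557707-96558006, forward strand: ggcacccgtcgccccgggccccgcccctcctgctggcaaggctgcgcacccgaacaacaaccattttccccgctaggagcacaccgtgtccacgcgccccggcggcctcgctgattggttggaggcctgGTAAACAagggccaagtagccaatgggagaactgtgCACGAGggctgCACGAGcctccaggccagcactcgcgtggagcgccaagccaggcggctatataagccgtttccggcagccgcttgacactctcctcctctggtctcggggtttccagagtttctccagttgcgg
Khk, chr5:30921309-30921608, forward strand: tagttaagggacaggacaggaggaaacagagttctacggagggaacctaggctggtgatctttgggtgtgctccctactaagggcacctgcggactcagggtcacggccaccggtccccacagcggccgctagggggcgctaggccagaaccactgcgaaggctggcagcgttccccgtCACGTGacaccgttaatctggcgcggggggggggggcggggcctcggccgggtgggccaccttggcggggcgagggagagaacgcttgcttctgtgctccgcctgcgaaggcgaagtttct

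Both strands of all 32851 promoter windows of that length were searched for the same letters. The carbohydrate response element was searched as a single pattern that reads the same on both strands. That pattern occurred in 0.1187% of the windows and, among the members, in Pklr. Direct repeats such as the 2 CACGAG copies of Txnip do not match it, so a miss does not exclude other forms of the element. CACGTG occurred in 7.15% and, among the members, in Khk and at 98 bases before 1 start of Mlxipl. CACGAG occurred in 6.475%, with Txnip and Mlxipl among them, and GTAAACA in 3.65%. A search for 2 copies of CACGAG with 5 bases between them found 1 of the 32851 windows, that of Txnip itself. The pattern was chosen after the Txnip sequence was seen, so that match was certain beforehand. AGGTCA, a nuclear receptor half-site, occurred in 16.26% of windows, among them Slc2a2 and the upstream window of Pklr, and TTATGTAA, a PAR bZIP motif, occurred in 0.9376% and in no member window. These are matches of letters and not measured binding.

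Depth ran from 0.706 to 14.3 M reads in the 13 arms (median 8.51) and from 4.85 to 10.06 M reads in the tunicamycin arms (median 7.71). Under 3 M reads were 2 uninjected BMKO libraries, at ZT 6 and ZT 22, and 1 WT rapamycin library at ZT 22. Arm profiles of the uninjected BMKO arm (median correlation 0.9401 with the other arms) and of RPKO (0.9445) stood apart from those of the other 11 arms (0.9676 to 0.986). The summed level of 9 hepatocyte markers was highest under arrhythmic feeding (median 83357 RPM, reads scaled to a common library size) and lower in uninjected (56902), vehicle (40703) and rapamycin (36584) BMKO liver than in uninjected WT (77000), while the arm medians of 10 Kupffer cell markers ran from 221 to 366 and those of 7 lymphocyte markers from 4.25 to 14.04. In BMKO against WT the median sum of 6 cholangiocyte markers was 59.6 against 23.6 RPM uninjected and 55.002 against 29.4 with vehicle, that of 10 endothelial markers was 191 against 299.9 and 257 against 283, and the 1 measured gene of the adipocyte and pancreas list stood at 69.1 against 15.3 and 50.6 against 32.1. Their part in the member differences was not tested, and fewer cells of a type and less RNA per cell cannot be told apart in these bulk samples. Tsc1 fell in TSKO (median 7.58 RPM against 14.95) and Rptor in RPKO (4.51 against 8.54). A lower Tsc1 level was not particular to TSKO. With limma its daily mean on the log2 scale was also lower in RPKO (-0.36 ± 0.08, adjusted p = 0.000577). The same held for rapamycin against vehicle in WT (-0.60 ± 0.08, 9.5e-08) and BMKO (-0.26 ± 0.08, 0.0291), while uninjected BMKO was higher than WT (0.19 ± 0.08, 0.0358). The daily mean of Arntl, the Bmal1 transcript, showed no fall on the log2 scale in the arms labelled BMKO. Its lowest, median and highest levels were 6.08, 9.98 and 16.99 RPM in uninjected BMKO against 0.176, 11.9 and 26.5 in WT (difference 0.37 ± 0.18, adjusted p = 0.0557), and 7.47, 14.5 and 18.7 with vehicle against 0, 6.36 and 21.8 in WT (1.42 ± 0.18, 3.8e-10). The sources used here do not say which part of the gene is deleted, so this 3′ tag does not check the genotype, and BMKO means the libraries so labelled throughout.

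Levels are given as RPM after rescaling libraries to a common effective size. Slc2a2 had its lowest arm mean in uninjected BMKO liver (174 ± 27.0 RPM, SD within times, n = 18), close to vehicle-injected BMKO (180 ± 24.9), and its highest in rapamycin-treated WT liver (366 ± 37.9). Rapamycin-treated BMKO liver (260 ± 31.8) stood between them, and its gap to vehicle-injected BMKO was 2.50 times the larger SD, the only one of the 12 gaps between neighbouring arms that exceeded it for Slc2a2. For the other 5 genes no gap between neighbouring arms exceeded the larger SD. The SD is that of single libraries and the gap that of arm means, so this describes the order and is no test: uninjected BMKO and uninjected WT are neighbours for Pklr and passed the test given below.

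Gckr ran from 73.7 ± 18.02 RPM in RPKO to 193 ± 19.8 in uninjected BMKO, and the 3 BMKO arms were its 3 highest, at 193, 174 and 156 RPM. Khk ran from 119 ± 21.3 in TSKO to 349 ± 127 in rapamycin-treated WT liver. Pklr was lowest in RPKO (52.2 ± 19.8) and vehicle-injected BMKO (52.2 ± 14.9) and highest in rapamycin-treated WT liver (125 ± 48.4). Txnip had the widest range of the 6, from 25.8 ± 11.8 in rapamycin-treated BMKO to 104 ± 43.7 in rapamycin-treated WT liver, a ratio of 4.03. Mlxipl had the narrowest, from 87.2 ± 20.8 to 107 ± 22.4, a ratio of 1.23. By the ratio of the extreme arms, the transcript of the sugar-responsive factor thus varied least and that of its target Txnip most. Its other target among the members, Pklr, had a smaller ratio than Gckr and Khk. The ratios for Slc2a2, Pklr, Gckr and Khk were 2.11, 2.399, 2.62 and 2.93.

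**Figure D1:**
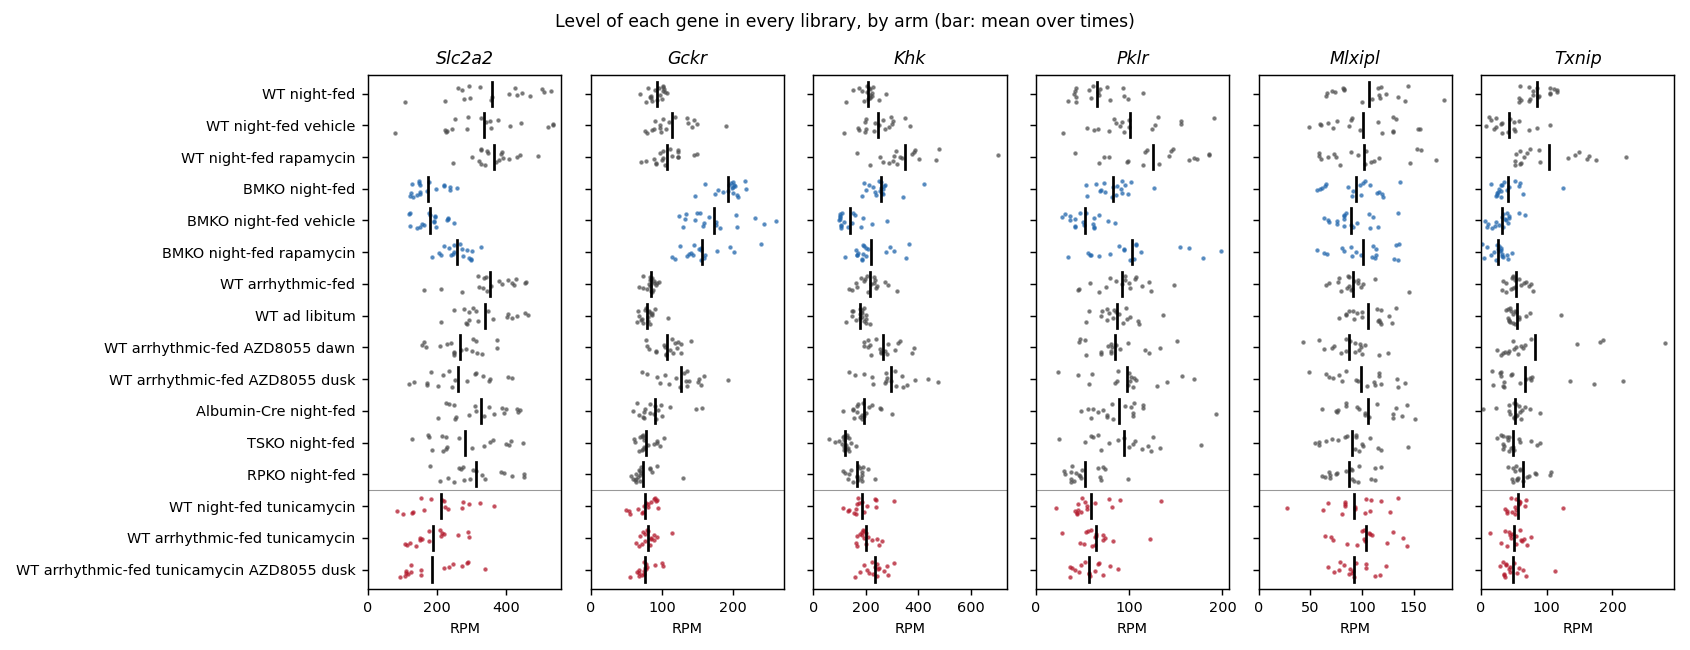
Level of each gene in every library (points, RPM on a linear axis) in 16 arms, with a bar at the mean over times; blue arms lack Bmal1, red arms received tunicamycin and come from the second table, and the others are grey. Among the 13 arms above the line the 3 BMKO arms are lowest for Slc2a2 and highest for Gckr, and Mlxipl means lie between 87.2 and 107 RPM.

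In the tunicamycin table the arm means were closer together. Night-fed, arrhythmically fed and AZD8055-treated livers had means of 211, 188 and 187 RPM for Slc2a2, of 76.7, 81.2 and 76.6 for Gckr and of 186, 200 and 235 for Khk. For Pklr they were 59.3, 64.5 and 56.9, for Mlxipl 92.4, 103 and 92.7 and for Txnip 56.9, 49.8 and 48.8. No gap between neighbouring arms exceeded the larger SD for any of the 6 genes.

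A 24 h rhythm was tested in each arm by fitting a cosine and a sine to log2(RPM + 0.5) with limma, at an adjusted p (Benjamini-Hochberg over all genes tested) below 0.05, and amplitude is the height of the fitted peak over the mean on that log2 scale. Slc2a2 passed in 14 of 16 arms and Mlxipl in 8. Txnip passed in 4 and Pklr and Gckr in 1 each. With the replicate number as a block Txnip also passed in WT with rapamycin (0.017) and BMKO with vehicle (0.0302), and Pklr in BMKO with rapamycin (0.024). Khk passed in none of the 16, where its amplitude was between 0.03 and 0.30, 2 arms had an unadjusted p below 0.05 and edgeR's quasi-likelihood test called 0. Without replicate 1 it passed in night-fed liver with tunicamycin (amplitude 0.47, adjusted p = 0.00797, against 0.30 and 0.101 with all libraries). In uninjected night-fed WT liver 21.8% of all genes tested passed, and the share was 14.9% with vehicle, 5.1% with rapamycin, 5.58% in uninjected BMKO, 5.49% in BMKO with vehicle and 0.274% in BMKO with rapamycin. It was 7.94% under arrhythmic feeding, 16.6% ad libitum, 21% with AZD8055 at dawn, 19.6% with AZD8055 at dusk, 23.2% in Albumin-Cre, 24.3% in TSKO and 17.6% in RPKO. In the tunicamycin arms it was 15.1% under night feeding, 7.51% under arrhythmic feeding and 21.2% with AZD8055.

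Slc2a2 peaked in the late day. In night-fed WT liver its 3 libraries at ZT 10 read 532, 511 and 448 RPM and those at ZT 22 read 356, 223 and 107 RPM, without overlap. These are the times of its highest and lowest mean there, so the lack of overlap is a description and no separate test. The fitted peak was at ZT 10.5 with an amplitude of 0.58 ± 0.12 (SE), a peak-to-trough ratio of 2.24 and an adjusted p of 0.00415. The peak lay between ZT 7.58 and ZT 13.5 in 13 of the 14 arms that passed, and the exception was AZD8055 at dawn, with a peak at ZT 21.1. Both rapamycin arms missed the threshold, with amplitudes of 0.23 ± 0.07 in WT (adjusted p = 0.15) and 0.11 ± 0.07 in BMKO (0.732). In WT liver the night-fed call missed the threshold without replicate 2 (0.0893), as did that with vehicle (0.0567).

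The rhythm of Slc2a2 also passed in 2 BMKO arms. In uninjected BMKO liver the ZT 10 libraries read 221, 237 and 259 RPM and the ZT 22 libraries 143, 123 and 131 RPM. They did not overlap, but these are again the times of the highest and lowest mean. The amplitude was 0.38 ± 0.08 with a peak at ZT 10.5 (adjusted p = 0.0146). With vehicle it was 0.34 ± 0.08 with a peak at ZT 10.7 (0.0379). Same-numbered libraries of the BMKO vehicle arm deviated together across times (median correlation 0.481, over 0.1 in 44 of 45 pairs). Without 1 replicate number the uninjected call missed the threshold in 2 of 3 cases (0.332 without replicate 2, 0.187 without replicate 3) and the vehicle call in 3 of 3 (0.071, 0.222 and 0.678), and the vehicle call also with edgeR (0.0502). The direct tests of a rhythm difference between genotypes gave adjusted p = 0.688 uninjected and 0.321 with vehicle for Slc2a2, which does not show that the rhythms were alike.

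Mlxipl peaked on the other side of the day. In night-fed WT liver its libraries read 71.5, 74.3 and 66.5 RPM at ZT 10 and 179, 142 and 99.7 RPM at ZT 22, without overlap. These are the times of its lowest and highest mean there, so this too is a description and no separate test. The fitted peak was at ZT 21.6 with an amplitude of 0.47 ± 0.09 (adjusted p = 0.002; 0.0553 without replicate 2). With the replicate number as a block Mlxipl also passed in WT with rapamycin (0.0166), BMKO with vehicle (0.012) and BMKO with rapamycin (0.0452). All 8 arms that passed with all libraries and no block were night-fed or fed ad libitum, namely WT with and without vehicle, uninjected BMKO, ad libitum WT, Albumin-Cre, TSKO, RPKO and night-fed WT with tunicamycin, and 7 of the 8 had a peak between ZT 21.6 and ZT 0.555. Without 1 replicate number Mlxipl also passed in BMKO with vehicle (0.0401) and in arrhythmically fed WT with AZD8055 at dusk (0.0309). The uninjected BMKO and Albumin-Cre calls missed the threshold whichever replicate number was left out (0.141 to 0.281 and 0.0804 to 0.128). The TSKO call missed without replicate 1 or 3 (0.0593 and 0.227), the ad libitum call without 2 or 3 (0.362 and 0.111) and the RPKO call without 3 (0.0777). The peak with tunicamycin, at ZT 2.45, rests on 4 times. The call there missed the threshold without replicate 1, 3 or 4 (0.101, 0.064 and 0.166) and with edgeR (0.0599). Under arrhythmic feeding the amplitude of Mlxipl was 0.10 ± 0.08 (0.644), its libraries at ZT 10 read 76.7, 68.1 and 95.9 RPM and those at ZT 22 read 89.7, 79.9 and 145 RPM, and these groups overlapped. The test of the difference between arrhythmic and night feeding gave a rhythm vector difference (the length of the difference between the fitted rhythms, which counts amplitude and phase together) of 0.38 ± 0.11 with adjusted p = 0.0921, so the loss of a call is not shown to be a change, and the difference passed without replicate 3 (0.0265) and with the replicate number within an arm as a random effect (0.0479).

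Txnip passed in night-fed WT liver (amplitude 0.38 ± 0.07, peak ZT 9.18, adjusted p = 0.0028), where its libraries read 104, 112 and 115 RPM at ZT 6 and 60.1, 72.2 and 57.9 RPM at ZT 22; the call missed without replicate 2 or 3 (0.0557 and 0.0705). It also passed in RPKO (0.42 ± 0.07, peak ZT 11.8, 0.00084) and in both AZD8055 arms without tunicamycin, which are described below. Pklr passed in arrhythmically fed liver with tunicamycin (0.45 ± 0.10, peak ZT 14.9, 0.018; 0.132, 0.0539 and 0.0513 without replicates 2, 3 and 4), and Gckr in the same feeding with tunicamycin and AZD8055 (0.21 ± 0.06, peak ZT 6.97, 0.0434). The Gckr call missed the threshold when any 1 of the 4 replicate numbers was left out (0.0644 to 0.226). Of these 28 calls over the 6 genes and 16 arms, 10 held under every alternative setting run for them, namely Slc2a2 in ad libitum, Albumin-Cre, TSKO and the 3 tunicamycin arms, Mlxipl in night-fed WT with vehicle, and Txnip in RPKO and both AZD8055 arms without tunicamycin.

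**Figure D2:**
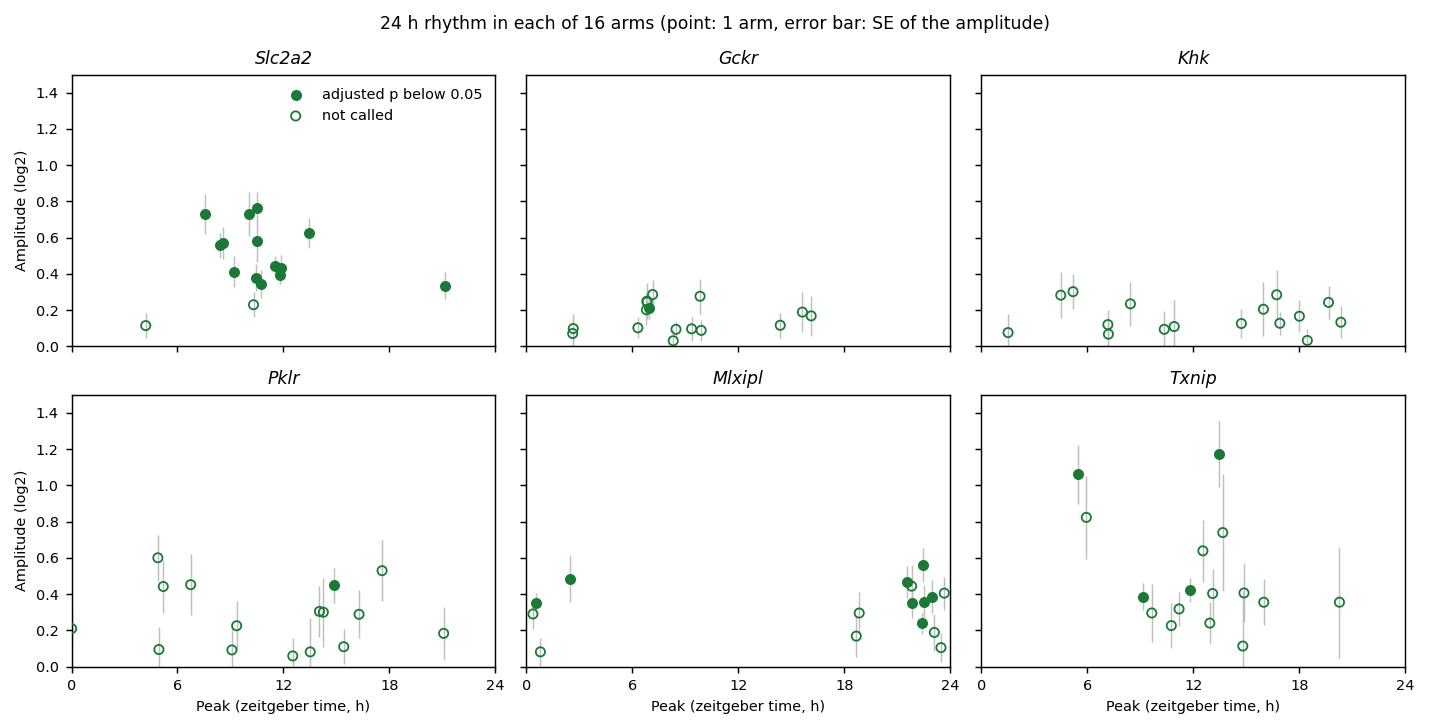
Amplitude (log2, vertical axis, with the SE as error bar) against fitted peak time (ZT in hours) of the 24 h rhythm, 1 point per arm for 16 arms; filled points have an adjusted p below 0.05. Filled Slc2a2 points sit between ZT 7.58 and 13.5 with 1 exception at ZT 21.1, filled Mlxipl points sit around ZT 22 to 2.45, and no Khk point is filled in the fit of all libraries.

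The feeding pattern was compared in uninjected WT liver, with night feeding shared by 2 of the 3 comparisons. Against the night-fed WT arm, Txnip was lower and Pklr higher in both other schedules. Txnip had 57.2, 82.0 and 116 RPM as lowest, median and highest of 18 libraries under night feeding, 31.1, 50.5 and 79.5 under arrhythmic feeding and 37.4, 48.8 and 122 ad libitum, so the ranges overlapped. Its daily mean (the mean over the 6 times) fell by 0.67 ± 0.10 on the log2 scale under arrhythmic feeding (adjusted p = 8.94e-07) and by 0.67 ± 0.10 ad libitum (5.17e-07), and was lower at 6 of 6 times in each. Pklr had 34.7, 63.9 and 114 RPM under night feeding, 45.3, 95.6 and 148 under arrhythmic feeding and 53.5, 84.9 and 136 ad libitum. It rose by 0.50 ± 0.14 (0.00408) and 0.45 ± 0.14 (0.00772), and was higher at 6 of 6 times in each. Albumin-Cre liver, also night-fed and uninjected, had arm means of 52.0 RPM for Txnip and 89.6 RPM for Pklr. The means were 84.9 and 65.7 RPM in night-fed WT, 53.4 and 92.3 under arrhythmic feeding and 53.9 and 87.1 ad libitum. Albumin-Cre thus stood nearer the other schedules than night-fed WT did. Whether the differences belong to feeding or to the night-fed WT arm was not tested.

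Smaller changes passed for 3 more genes. Gckr fell by 0.13 ± 0.05 under arrhythmic feeding (0.0324) and by 0.22 ± 0.05 ad libitum (0.000419). Mlxipl fell by 0.20 ± 0.08 under arrhythmic feeding (0.0413), and Khk fell by 0.20 ± 0.09 ad libitum (0.047). The arrhythmic calls of Gckr and Mlxipl missed the threshold without replicate 2 (0.302 and 0.593), with the random effect (0.0929 and 0.107) and without a further replicate (0.0777 without replicate 3, 0.268 without replicate 1). That of Khk missed it without replicate 1 or 2 (0.366 and 0.22), with no filter on low values (0.0515) and with the random effect (0.111). Slc2a2 differed by 0.01 ± 0.10 (0.933) and -0.03 ± 0.10 (0.801), so no change in its daily mean was detected. Thus 4 of 6 genes passed in each comparison with night feeding, where 44% (arrhythmic) and 53% (ad libitum) of all genes passed, and none passed between arrhythmic and ad libitum feeding, where 8.34% of all genes passed. In that last comparison limma gave 2 members an unadjusted p below 0.05, Mlxipl and Khk, and edgeR called 1, Khk. With no replicate 2 the Pklr rise missed the threshold in both comparisons (0.237 and 0.0731), while the Txnip fall held in every alternative run.

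No member passed the limma test of a rhythm difference between feeding patterns, edgeR called 0 in each, and 1 member, Mlxipl, had an unadjusted p below 0.05 for arrhythmic against night feeding. Of all genes, 4.64% passed for arrhythmic against night feeding, 0.854% for ad libitum against night feeding and 0.0483% for arrhythmic against ad libitum feeding.

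Among 16 other genes of the ChREBP network that could be tested, 9 rose and 1 fell under arrhythmic feeding (median 0.28 against 0.02 over all genes) and 7 rose and 2 fell ad libitum (0.22 against 0.02). G6pc, the phosphatase that releases glucose, rose by 0.83 and 0.75, Thrsp, a lipogenic regulator, by 0.85 and 0.82, and Acacb, an acetyl-CoA carboxylase, by 0.71 and 0.81. Of 9 other uptake and phosphorylation genes 1 rose and 2 fell under arrhythmic feeding. Of 25 other glycolysis genes 5 rose and 6 fell under arrhythmic feeding and 4 rose and 9 fell ad libitum, with Gapdh, whose reads may be split with near-identical pseudogenes, lower by 1.33 and 1.72 and Pfkl, the liver phosphofructokinase, higher by 0.52 and 0.55. Of 8 pentose phosphate genes 4 rose and 1 fell, and 3 rose and 1 fell, with Tkt, transketolase, higher by 0.78 and 0.93. Over all genes 44% passed under arrhythmic feeding and 53% ad libitum. These lists were drawn up with earlier results of the series known, and the counts describe them. Tkfc stands both in the uptake and in the ChREBP network list.

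In BMKO liver under night feeding Gckr was higher and Slc2a2 lower than in WT, with and without injection. Gckr had 146.7, 199 and 218 RPM as lowest, median and highest in uninjected BMKO and 69.6, 94.6 and 107 RPM in uninjected WT, with no overlap. The daily mean was 1.06 ± 0.08 higher on the log2 scale, or 2.09-fold (adjusted p = 3e-19). With vehicle Gckr had 124, 163 and 261 RPM in BMKO and 76.8, 103 and 191 RPM in WT, which overlapped, and was higher by 0.62 ± 0.08, or 1.53-fold (5.7e-09).

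Slc2a2 had 123, 152 and 259 RPM in uninjected BMKO and 107, 359 and 532 RPM in WT, and 119, 185 and 251 RPM in BMKO with vehicle against 78.7, 336 and 538 RPM in WT with vehicle. Both pairs of ranges overlapped, uninjected through 2 WT libraries at ZT 22 and with vehicle through WT libraries at ZT 18 and ZT 22. The daily mean fell by 1.01 ± 0.10 uninjected (1.07e-15) and by 0.82 ± 0.10 with vehicle (4.47e-11), and was lower at 6 of 6 times in each. Both genes passed in both comparisons under every alternative run.

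Khk and Pklr fell with vehicle and were higher without it. With vehicle Khk had 99.4, 114 and 280 RPM in BMKO and 118, 242 and 366 RPM in WT, a fall of 0.83 ± 0.13 (4.53e-07), and Pklr had 28.1, 51.3 and 84.9 RPM against 28.8, 93.0 and 191 RPM, a fall of 0.89 ± 0.16 (9.75e-06). Uninjected, Khk had 184, 255 and 420 RPM against 123, 212 and 278 RPM and was higher by 0.30 ± 0.13 (0.0371), and Pklr had 53.4, 84.6 and 127 RPM against 34.7, 63.9 and 114 RPM and was higher by 0.38 ± 0.16 (0.0298). These rises missed the threshold with DESeq2 size factors (0.126 and 0.0836), with the random effect (0.15 and 0.168) and without replicate 2 (0.0664 and 0.123), that of Pklr also with edgeR (0.0528) and without replicate 1 (0.297), and that of Khk without replicate 3 (0.205) and without the libraries under 3 M reads (0.146). The test of the difference between the 2 genotype effects, added after the values were seen, gave -1.13 ± 0.19 for Khk (3.54e-07) and -1.28 ± 0.23 for Pklr (2.33e-06), and both held in every alternative run. In the BMKO vehicle arm the library numbered 1 was the highest of 3 for Khk at 6 of 6 times.

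Txnip had 15.7, 30.7 and 125 RPM in uninjected BMKO and 57.2, 82.0 and 116 RPM in WT, a fall of 1.19 ± 0.25 (2.56e-05). With vehicle it had 5.83, 33.7 and 66.2 RPM in BMKO and 7.52, 36.1 and 105 RPM in WT, and the difference was -0.31 ± 0.25 (0.421). The difference between these effects was 0.87 ± 0.36 (0.0314), which missed the threshold with edgeR on the recovered reads (0.0704), with the random effect (0.164) and without replicate 1 or 2 (0.107 and 0.306). Gckr also differed between the comparisons, by -0.44 ± 0.12 (0.000986, and 0.0653 without replicate 2). Mlxipl differed from WT by -0.17 ± 0.10 uninjected (0.106) and -0.12 ± 0.10 with vehicle (0.453). Uninjected, it passed as lower with DESeq2 size factors (0.019) and without replicate 3 (0.0102), and with vehicle Txnip passed as lower without replicate 1 (0.026).

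Thus 5 of 6 genes passed uninjected, where 71.7% of all genes passed, 4 of 6 with vehicle, where 21.7% passed, and 4 of 6 in the test of the difference, where 57.1% passed. The uninjected BMKO arm is the one whose profile stood apart above. The medians of the summed hepatocyte markers were 56902 RPM in BMKO against 77000 in WT uninjected and 40703 against 77551 with vehicle, and the cholangiocyte marker sums were higher in BMKO (59.6 against 23.6 and 55.002 against 29.4). The part of either in these differences was not tested. No member passed the limma test of a rhythm difference, which 3.09% of all genes passed uninjected, 1.75% with vehicle and 0% for the difference between the effects, where 505 genes had an unadjusted p below 0.05. For the members edgeR called 0 in each, and the counts at an unadjusted p below 0.05 were 0, 4 and 0, the 4 being Gckr, Slc2a2, Pklr and Txnip with vehicle. Pklr passed with vehicle without replicate 1 (0.0397).

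With vehicle, 11 of the 16 other ChREBP network genes fell and none rose (median -0.67 against -0.01 over all genes). Scd1, stearoyl-CoA desaturase, fell by 1.73, Me1, malic enzyme, by 1.55 and Thrsp by 1.95. Uninjected, 7 of the 16 fell and 4 rose (median -0.18 against -0.06). Of the 9 uptake and phosphorylation genes 1 rose and 4 fell with vehicle, with Slc2a5, the fructose transporter, lower by 1.63, and 2 rose and 3 fell uninjected. Of the 25 glycolysis genes 1 rose and 11 fell with vehicle, and 10 rose and 11 fell uninjected. Of the 8 pentose phosphate genes 1 rose and 3 fell with vehicle and 4 rose and 3 fell uninjected. Over all genes 21.7% passed with vehicle and 71.7% uninjected.

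Rapamycin was compared with vehicle within each genotype. Txnip and Khk rose in WT liver, and Slc2a2, Pklr and Khk rose in BMKO liver. In WT liver Txnip had 51.2, 81.4 and 220 RPM as lowest, median and highest with rapamycin and 7.52, 36.1 and 105 RPM with vehicle, and the ranges overlapped. At ZT 14, its highest time mean with rapamycin, the libraries read 220, 133 and 162 RPM with rapamycin and 7.52, 22.9 and 85.8 RPM with vehicle. The daily mean rose by 1.42 ± 0.25, or 2.68-fold (adjusted p = 2.15e-05), and was higher at 6 of 6 times. The rise ranged from 0.79 to 1.99 over the alternatives and passed in each, and the library numbered 1 was the lowest with vehicle and the highest with rapamycin at 4 of 6 times each. The Txnip mean of uninjected night-fed WT liver was 84.9 RPM, against 41.7 with vehicle and 104 with rapamycin. The rise is thus one over a vehicle arm that stood below uninjected liver, and rapamycin was not tested against the uninjected arm.

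In BMKO liver Txnip had 2.01, 28.4 and 47.0 RPM with rapamycin and 5.83, 33.7 and 66.2 RPM with vehicle, a difference of -0.35 ± 0.25 (0.392). The effect in BMKO minus that in WT was -1.78 ± 0.36 (0.000851). That difference was -0.87 without replicate 1 and then missed the threshold (0.125), and it also missed with the replicate number as a random effect (0.113).

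Khk had 165, 323 and 703 RPM with rapamycin and 118, 242 and 366 RPM with vehicle in WT liver, a rise of 0.49 ± 0.13 (0.00517) that missed the threshold without replicate 3 (0.117) and with the random effect (0.13). In BMKO it had 121, 192 and 363 RPM against 99.4, 114 and 280 RPM, a rise of 0.66 ± 0.13 (0.000267; 0.0682 without replicate 2). Pklr had 34.3, 97.9 and 198 RPM with rapamycin and 28.1, 51.3 and 84.9 RPM with vehicle in BMKO, a rise of 0.91 ± 0.16 (3.79e-05), and differed by 0.33 ± 0.16 in WT (0.152). Slc2a2 had 187, 259 and 328 RPM against 119, 185 and 251 RPM in BMKO, a rise of 0.55 ± 0.10 (2.7e-05), and differed by 0.22 ± 0.10 in WT (0.0907). The tests of the difference between genotypes gave 0.59 ± 0.23 for Pklr (0.072), 0.32 ± 0.13 for Slc2a2 (0.0917) and 0.17 ± 0.19 for Khk (0.583). These rises are thus not shown to differ by genotype, and Pklr and Slc2a2 passed that test without replicate 3 (0.0142 and 0.00991). In BMKO the mean of Khk was 256 RPM uninjected, 140 with vehicle and 219 with rapamycin, and that of Pklr 83.0, 52.2 and 104. For both genes the BMKO vehicle arm thus stood below the uninjected one, against which rapamycin was not tested.

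Gckr and Mlxipl missed the threshold in both genotypes, with differences of -0.06 ± 0.08 and 0.01 ± 0.10 in WT and of -0.14 ± 0.08 and 0.15 ± 0.10 in BMKO. In all, 2 of 6 genes passed in WT, where 18.5% of all genes passed, 3 of 6 in BMKO, where 11.9% passed, and 1 of 6 in the test of the difference, where 14.2% passed. The summed hepatocyte markers had medians of 60424 RPM with rapamycin and 77551 with vehicle in WT and of 36584 and 40703 in BMKO, and their part was not tested. No member passed the limma test of a rhythm difference, which 0% of all genes passed in WT (674 at an unadjusted p below 0.05), 0.29% in BMKO and 0% for the difference between genotypes (451). At an unadjusted p below 0.05 were 1, 5 and 1 members, and edgeR called 0 in each. With the random effect Pklr (0.0315) and Txnip (0.0235) passed in BMKO.

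Of the 16 other ChREBP network genes 4 rose and 3 fell in WT (median -0.05 against -0.00 over all genes) and 4 rose and none fell in BMKO (0.33 against -0.01). Gpd1, glycerol-3-phosphate dehydrogenase, rose by 0.94 in WT, and Me1 rose by 0.53 in BMKO. Tkfc, the triokinase that follows ketohexokinase in fructose use, rose with Khk in both, by 0.67 in WT (0.000599) and 0.68 in BMKO (0.00077). Of the 9 uptake and phosphorylation genes 2 rose and none fell in WT, and 1 rose and 2 fell in BMKO. Of the 25 glycolysis genes 6 rose and 1 fell, and 4 rose and 1 fell, with Ldha, lactate dehydrogenase A, higher by 0.82 in WT. Of the 8 pentose phosphate genes 2 rose and 1 fell in WT and 1 rose in BMKO. Over all genes 18.5% passed in WT and 11.9% in BMKO.

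**Figure D3:**
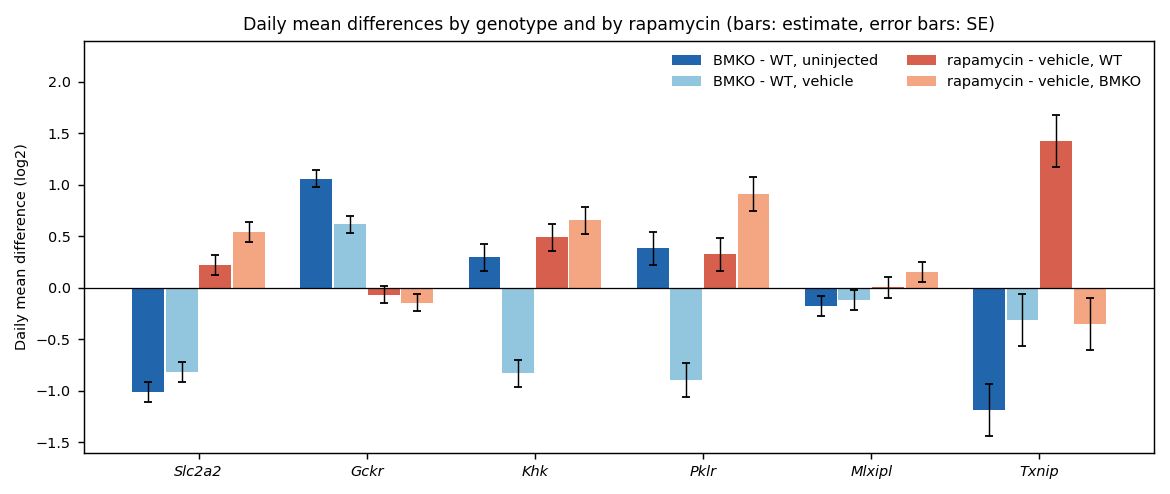
Differences in daily mean (log2, bars from 0 with the SE as error bar) for the 6 genes, for BMKO minus WT without injection (dark blue) and with vehicle (light blue) and for rapamycin minus vehicle in WT (dark red) and BMKO (light red). Slc2a2 is lower and Gckr higher in both genotype comparisons, Khk and Pklr take opposite signs in them, and the Txnip difference with rapamycin is 1.42 in WT and -0.35 in BMKO.

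In the liver knockouts of mTOR complex 1 regulators, Khk and Slc2a2 fell in TSKO, Pklr and Gckr fell in RPKO and Mlxipl fell in both. Khk fell in TSKO, where its lowest, median and highest libraries were 59.9, 121 and 162 RPM against 112, 186 and 300 RPM in Albumin-Cre. The fall of its daily mean was 0.68 ± 0.10, a ratio of 0.625 (adjusted p = 4.4e-07), seen at 6 of 6 times and in every alternative run. In RPKO Khk had 112, 170 and 234 RPM and differed by -0.18 ± 0.10 (0.139). Pklr fell in RPKO, with 29.6, 47.0 and 98.9 RPM against 47.8, 82.1 and 193 RPM, by 0.77 ± 0.16, a ratio of 0.585 (9.63e-05), at 6 of 6 times and in every alternative run. In TSKO Pklr had 24.5, 96.9 and 177 RPM and differed by 0.03 ± 0.16 (0.892). The difference between the 2 knockouts was not tested.

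Slc2a2 had 128, 247 and 449.5 RPM in TSKO and 205, 326 and 440 RPM in Albumin-Cre, a fall of 0.26 ± 0.07 (0.00484; 0.207 without replicate 3), and differed by -0.06 ± 0.07 in RPKO (0.509). Mlxipl fell by 0.23 ± 0.08 in TSKO (0.0234) and by 0.26 ± 0.08 in RPKO (0.0105), but without replicate 3 these were -0.05 (0.785) and -0.14 (0.354). Gckr fell by 0.28 ± 0.09 in RPKO (0.0111; -0.13 and 0.426 without replicate 3; 0.168 without replicate 2) and differed by -0.18 ± 0.09 in TSKO (0.114). Txnip differed by -0.01 ± 0.21 in TSKO (0.98) and 0.44 ± 0.21 in RPKO (0.0938). Gckr passed as lower in TSKO (0.0138) and Khk in RPKO (0.0374) without replicate 1.

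Thus 3 of 6 genes passed in each knockout, where 36.5% of all genes passed in TSKO and 42.5% in RPKO. RPKO is the other arm whose profile stood apart above. Its median depth was 6.50 M reads against 7.92 in Albumin-Cre, and its 20 highest genes held a median of 44.3% of reads against 35.8%. The part of these in the RPKO differences was not tested. No member passed the limma test of a rhythm difference, which 0.00815% of all genes passed in TSKO and 0% in RPKO (541 at an unadjusted p below 0.05). At an unadjusted p below 0.05 were 2 members in TSKO, Slc2a2 and Pklr, and 0 in RPKO, and edgeR called 0 in each. Of the 16 other ChREBP network genes 2 rose and 9 fell in TSKO (median -0.40 against -0.00 over all genes) and 5 rose and 6 fell in RPKO (-0.12 against -0.01). Fasn, fatty acid synthase, fell by 1.12 and Me1 by 1.02 in TSKO, and Thrsp fell by 1.12 in RPKO. Tkfc fell in both, by 0.40 in TSKO (0.000157) and 0.85 in RPKO (1.57e-11). Of the 9 uptake and phosphorylation genes 3 rose and 2 fell in TSKO, with Slc2a5 higher by 0.81, and none rose and 4 fell in RPKO, with Slc2a5 lower by 0.70. Of the 25 glycolysis genes 3 rose and 8 fell in TSKO and 7 rose and 5 fell in RPKO, and of the 8 pentose phosphate genes 1 rose and 3 fell in TSKO and 2 rose and 1 fell in RPKO.

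The arms injected with AZD8055 at dawn and at dusk share their uninjected comparison arm and were not tested against each other. At single times after dawn injection, Txnip passed as higher at ZT 6 and Slc2a2 as lower at ZT 6 and ZT 10. After dusk injection Slc2a2 passed as lower and Khk as higher at ZT 18, and Gckr as higher at ZT 14, ZT 18 and ZT 22. Txnip at ZT 6 read 181, 280 and 146 RPM with AZD8055 at dawn, 58.3, 52.3 and 32.7 RPM without it and 47.5, 46.2 and 29.8 RPM with AZD8055 at dusk, so the dawn libraries lay above all others. The dawn difference at ZT 6 was 2.06 ± 0.42 on the log2 scale, or 4.17-fold (adjusted p = 0.000497), and held in every alternative run. At ZT 2 its libraries read 75.3, 186 and 48.8 RPM against 49.3, 48.1 and 47.5 RPM, which did not pass (0.223).

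Txnip at ZT 14 read 75.6, 136 and 216 RPM with AZD8055 at dusk and 76.5, 60.1 and 72.4 RPM without it, which overlapped (0.91 ± 0.42, adjusted p = 0.135). Its fitted rhythm had an amplitude of 1.06 ± 0.16 with a peak at ZT 5.46 after dawn injection (0.000483) and 1.17 ± 0.18 with a peak at ZT 13.5 after dusk injection (0.000759), against 0.24 ± 0.11 without drug (0.363). The rhythm vector difference from no drug was 1.17 ± 0.24 for dawn (0.00217; 0.0888 without replicate 2) and 0.94 ± 0.24 for dusk (0.0377), and the dusk difference missed the threshold without replicate 1, 2 or 3 (0.122, 0.273 and 0.135). The daily mean of Txnip did not pass with either (0.31 ± 0.17, 0.154, and -0.00 ± 0.17).

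Slc2a2 showed the opposite sign at ZT 6 and ZT 10 after dawn injection. Its libraries read 162.5, 240 and 228 RPM with AZD8055 and 430, 406 and 379 RPM without it at ZT 6, and 157, 209 and 168 RPM against 459, 455 and 418 RPM at ZT 10, without overlap at either time. The differences were -0.96 ± 0.21 (0.000981; 0.0559 without replicate 1) and -1.33 ± 0.21 (8.5e-06). After dusk injection the ZT 18 libraries read 133, 170 and 119 RPM against 321, 333 and 211 RPM, a difference of -1.02 ± 0.21 (0.000537), again without overlap. The peak stood at ZT 21.1 after dawn injection, at ZT 8.59 after dusk injection and at ZT 9.22 without drug, and the rhythm vector difference was 0.75 ± 0.12 for dawn (8.82e-05), which held in every alternative run, and 0.18 ± 0.12 for dusk (0.64). The daily mean fell by 0.41 ± 0.09 with dawn (0.000159) and by 0.48 ± 0.09 with dusk injection (1.19e-05).

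Gckr rose with both injections. It had 77.7, 109 and 141 RPM as lowest, median and highest with dawn injection, 72.8, 133 and 192 RPM with dusk injection and 68.0, 84.6 and 95.5 RPM without drug, with daily means higher by 0.34 ± 0.09 (0.00156; 0.0588 without replicate 3) and 0.55 ± 0.09 (1.17e-06). After dusk injection it was higher at ZT 14 by 0.83 ± 0.21 (0.0056), where the libraries read 192, 134 and 138 RPM against 82.2, 91.97 and 83.5 RPM without overlap. It was also higher at ZT 18 (0.67 ± 0.21, 0.0221) and ZT 22 (0.67 ± 0.21, 0.0208), and the 3 single-time calls each missed the threshold without replicate 1 (0.168, 0.298 and 0.164). Those at ZT 18 and ZT 22 also missed it without replicate 3 (0.0726 and 0.0622), and that at ZT 22 without replicate 2 (0.0731).

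Khk had 191, 258 and 381 RPM with dawn injection, 137, 288 and 472 RPM with dusk injection and 137, 214 and 320 RPM without drug. It rose by 0.31 ± 0.12 (0.0335) and 0.42 ± 0.12 (0.00322), and at ZT 18 after dusk injection by 0.80 ± 0.29 (0.046), and all 3 calls missed the threshold without replicate 1 (0.13, 0.0995 and 0.459) and without replicate 3 (0.429, 0.156 and 0.149). The dawn call also missed with the random effect (0.12), and the call at ZT 18 with no filter (0.0528). Pklr differed in daily mean by -0.12 ± 0.17 (0.602) and 0.03 ± 0.17 (0.91), and Mlxipl by -0.08 ± 0.11 (0.602) and 0.09 ± 0.11 (0.536).

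**Figure D4:**
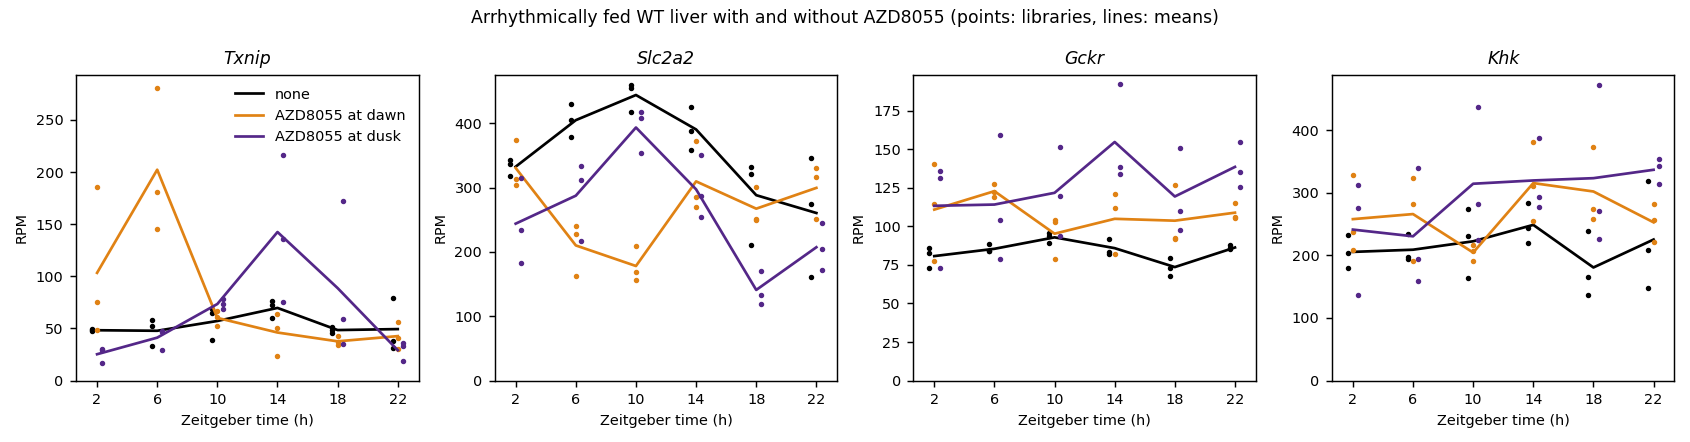
Level (RPM) of 4 genes against ZT in arrhythmically fed WT liver without AZD8055 (black), with AZD8055 at dawn (orange) and with AZD8055 at dusk (purple); points are the 3 libraries of a time and lines join their means. Txnip reaches a mean of 202 RPM at ZT 6 after dawn injection and 143 RPM at ZT 14 after dusk injection, while Slc2a2 falls to 178 RPM at ZT 10 after dawn and 141 RPM at ZT 18 after dusk injection.

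In daily mean 3 of 6 genes passed with dawn injection, where 41% of all genes passed, and 3 of 6 with dusk injection, where 50.8% passed. In rhythm 2 of 6 passed with dawn, where 14.7% of all genes passed, and 1 of 6 with dusk, where 5.73% passed. The 12 single-time comparisons were added after the values were seen. With dawn injection 2 of 6 genes passed at ZT 6 and 1 at ZT 10, where 16.1% and 23.2% of all genes passed, and none at ZT 2, 14, 18 and 22, where 7.29%, 10.9%, 2.05% and 1.27% passed. With dusk injection 1 passed at ZT 14, 3 at ZT 18 and 1 at ZT 22, where 16.9%, 18.9% and 19.7% of all genes passed, and none at ZT 2, 6 and 10, where 12.2%, 5.49% and 2.43% passed. At the times with no call, 0 to 3 members had an unadjusted p below 0.05 with limma.

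Of the 25 other glycolysis genes 8 rose and 2 fell with dawn injection (median 0.19 against 0.01 over all genes) and 12 rose and 3 fell with dusk injection (0.26 against 0.02). Ldha rose by 0.71 and 1.01, Tpi1, triose phosphate isomerase, by 0.44 and 0.57 and Gpi1, glucose phosphate isomerase, by 0.69 and 0.78. Of the 16 ChREBP network genes 4 rose and 5 fell with dawn and 4 rose and 3 fell with dusk injection, with Thrsp lower by 1.40 and 1.12. Of the 9 uptake and phosphorylation genes 1 rose and 3 fell with dawn and 4 rose and 1 fell with dusk injection, with Tkfc higher by 0.55 and 0.70. Of the 8 pentose phosphate genes 3 rose and none fell with dawn and 3 rose and 1 fell with dusk injection. H6pd, a hexose-6-phosphate dehydrogenase, was higher by 0.61 and 0.54. Over all genes 41% passed with dawn and 50.8% with dusk injection.

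In the rhythm test with dawn injection 5 of the 9 uptake and phosphorylation genes passed, among them Slc2a9, a urate and fructose transporter, beside 3 of the 25 glycolysis genes, 6 of the 16 ChREBP network genes and 1 of the 8 pentose phosphate genes. With dusk injection 0 of 9, 1 of 25, 2 of 16 and 0 of 8 passed. Over all genes 14.7% passed the rhythm test with dawn and 5.73% with dusk injection.

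With tunicamycin, no member passed in daily mean between arrhythmic and night feeding, where 0.595% of all genes passed, or with AZD8055 at dusk, where 8.8% passed. Limma gave 0 and 1 members, Khk, an unadjusted p below 0.05, and edgeR called 0 in each. The Txnip difference between arrhythmic and night feeding was -0.22 ± 0.16 (0.579) and that of Pklr 0.17 ± 0.14 (0.641). AZD8055 at dusk gave -0.09 ± 0.07 for Gckr (0.51), -0.07 ± 0.10 for Slc2a2 (0.731) and 0.22 ± 0.09 for Khk (0.111).

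In rhythm 1 of 6 genes passed between the feeding patterns with tunicamycin, where 4.44% of all genes passed, and none with AZD8055, where 0.0326% passed, with 1 member, Pklr, at an unadjusted p below 0.05 with limma and 0 called by edgeR. Pklr read 49.2, 77.9, 90.3 and 134 RPM at ZT 4 and 82.1, 21.8, 54.7 and 45.01 RPM at ZT 16 under night feeding, and 58.6, 55.6, 53.4 and 28.1 RPM at ZT 4 and 74.1, 122, 72.2 and 82.5 RPM at ZT 16 under arrhythmic feeding. The last 2 groups, at the times of the lowest and highest mean under arrhythmic feeding, did not overlap. Its fitted peak was at ZT 5.20 under night feeding and ZT 14.9 under arrhythmic feeding, and the rhythm vector difference was 0.85 ± 0.20 (0.0171). It missed the threshold without replicate 2, 3 or 4 (0.176, 0.106 and 0.268). The rhythm difference of Khk was 0.43 ± 0.12 (0.0884; 0.0111 without replicate 1). Among other genes in that test 7 of 17 ChREBP network genes, 4 of 24 glycolysis genes, 2 of 9 uptake and phosphorylation genes and 1 of 8 pentose phosphate genes passed, with Acly, ATP citrate lyase, the largest of those named at 2.23.

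Slc2a2 was high by day in the tunicamycin arms. Under night feeding it read 276, 326, 293 and 367 RPM at ZT 10 and 84.1, 131.5, 128 and 100.6 RPM at ZT 22. Under arrhythmic feeding it read 220, 262.5, 211 and 293 RPM at ZT 10 and 122, 109, 115 and 139 RPM at ZT 22. There was no overlap in either, between what are the times of the highest and lowest mean in both arms. The amplitudes were 0.77 ± 0.08 with a peak at ZT 10.5 (1.4e-05) and 0.56 ± 0.07 with a peak at ZT 8.38 (0.000132), and 0.73 ± 0.11 with a peak at ZT 7.58 with AZD8055 (0.000243).

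The tunicamycin and untreated arms were scaled in separate tables and share ZT 10 and ZT 22, so their means stand side by side with no test. Under night feeding Slc2a2 was at 316 RPM with and 497 RPM without tunicamycin at ZT 10, and at 111 and 229 RPM at ZT 22. Txnip was at 60.2 and 100.5 RPM at ZT 10 and at 44.4 and 63.4 RPM at ZT 22. Under arrhythmic feeding Slc2a2 was at 247 and 444 RPM at ZT 10 and at 121 and 261 RPM at ZT 22, and Txnip at 55.1 and 57.2 RPM and at 47.8 and 49.4 RPM. All 4 Slc2a2 means were lower with tunicamycin. The median hepatocyte marker sum was 53415 RPM with and 77000 without tunicamycin under night feeding and 51256 and 83357 under arrhythmic feeding, and its part was not tested.

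The genes whose pattern was most like each member were taken over the 78 arm-by-time means of the 13 arms, as a Pearson correlation of mean log2(RPM + 0.5). The means share libraries between genes, and arms that stood apart weigh in every value. Gckr was most like Sil1 (0.93), Itih1 (0.91) and Aldh16a1 (0.91) and least like Slc25a5 (-0.89). Khk was most like Tspo (0.84), Sod1 (0.80) and Adh1 (0.78) and least like Ccdc77 (-0.73). Slc2a2 was most like Fhad1 (0.79), Tnfrsf19 (0.78) and Pdk1 (0.77), a pyruvate dehydrogenase kinase, and least like St3gal1 (-0.78). Txnip was most like Bbox1 (0.78), Gab1 (0.75) and Tollip (0.75) and least like Sec63 (-0.69). Mlxipl was most like Ikbkg (0.69), Gtf2ird1 (0.69) and Tars (0.67) and least like Syt1 (-0.65).

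Pklr was most like Cmip (0.68), Ank (0.62) and Khk (0.60), another member, and least like Mrpl23 (-0.54). Among the other pairs of members the correlation ran from -0.43 for Gckr and Slc2a2 to 0.41 for Slc2a2 and Txnip. Pklr and Txnip, whose promoters are shown above, had a correlation of 0.03, and Mlxipl had 0.12 with Pklr and -0.18 with Txnip.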

How the data were processed

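Libraries were made with the QuantSeq 3′ mRNA-seq kit, per the labels' protocols. Per the submitters' processing notes, STAR 2.7.3a and SAMtools were used with mm10 (GRCm38.p6). The sources used here do not give the counting program, annotation or scaling. The deposited values were read as gene counts divided by a factor per library (unit signal), which was inferred from the steps between values. On that reading 99.9103% of values in the 13 arms and 100% in the tunicamycin arms came out as whole reads within 0.01 read. The 197 genes off that step, in the 18 RPKO libraries, hold no member. Reads were recovered from the step, scaled by TMM to RPM and fitted as log2(RPM + 0.5) with limma 3.58.1 (trend; edgeR 4.0.16, R 4.3.3) for genes whose mean reached 1 RPM: 12412 genes, 12266 in comparisons with RPKO and 12262 with tunicamycin. Arms were fitted together in 5 sets (feeding, Bmal1 with rapamycin, liver knockouts, AZD8055, tunicamycin), or alone for a rhythm, with a mean per arm and time; daily means and joint 24 h cosine and sine contrasts were tested two-sided with Benjamini-Hochberg adjustment over all genes, and folds refer to the log2(RPM + 0.5) scale.

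The members and gene lists were chosen with earlier results of these data known. Named besides the members were up to 4 genes per list and comparison with the smallest adjusted p, and the 3 most and 1 least correlated genes of each member. Alternatives were a pseudocount of 2, no filter, DESeq2 1.42.0 size factors, edgeR's quasi-likelihood test on recovered reads, the replicate number as a block, leaving out each replicate number and leaving out libraries under 3 M reads. Added after values were seen were the replicate number within an arm as a random effect, the difference between the BMKO effects with vehicle and uninjected, and the 12 single-time AZD8055 comparisons. The labels call replicates biological. No 2 libraries were copies of each other (highest correlation 0.988).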

Additional observations from a re-analysis of the deposited data

Results flagged for a closer look

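In 72 groups of 4 libraries, where chance alone gives about 5%, 4 member values lay far from their group. Mlxipl read 67.0 RPM in 1 night-fed tunicamycin library at ZT 10, against 83.1 or more in the other 3. Pklr read 28.1 RPM in 1 arrhythmically fed tunicamycin library at ZT 4, with the next at 53.4. With tunicamycin and AZD8055, Gckr read 101.1 RPM in 1 library at ZT 10, with the next at 79.3, and Txnip read 67.8 RPM in 1 library at ZT 22, with the next at 36.9.

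The difference of BMKO from WT with vehicle minus that without injection passed the limma test for Gckr (-0.44), Pklr (-1.28), Khk (-1.13) and Txnip (0.87). The effect of rapamycin in BMKO minus that in WT passed it for Txnip (-1.78). These differences stand with their errors and limits in the text above.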

How the results depend on the processing

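No member result reversed its direction past the threshold under any alternative. Over single genes 3031 values stayed on their side of the threshold, 100 lost a call and 31 gained one. Of 39 daily-mean calls 20 held in every alternative, as did 1 of 4 rhythm differences, 3 of 8 single-time calls and 10 of 28 arm rhythms. The causes were not tested. The shares of all genes given above belong to the limma fit of all libraries with no block or random effect. Member counts under the alternatives below have no such share beside them, so they describe how the member calls depend on the setting and nothing more.

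Replicate numbers were not taken to pair the compared arms. Their same-numbered libraries had median correlations of -0.033 to 0.161, and in no comparison were all over 0.1. For rapamycin against vehicle in BMKO 11 of 18 pairs were over 0.1. Differently numbered libraries were not correlated for reference, so this check cannot exclude pairing. Within an arm, same-numbered libraries of different times did deviate together in some arms, with medians of 0.481 in BMKO vehicle (44 of 45 pairs over 0.1), 0.244 in BMKO rapamycin and 0.212 in night-fed WT (34 of 45), so p-values that take libraries as independent may be too small there. With the replicate block the count of members with a rhythm became 2 in WT rapamycin (Mlxipl, Txnip), 3 in BMKO vehicle (Slc2a2, Mlxipl, Txnip) and 2 in BMKO rapamycin liver (Mlxipl, Pklr); other counts stayed within 1.5 times.

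With the replicate number as a random effect the count was 2 for the daily mean and 1 for the rhythm of arrhythmic against night feeding, 3 for uninjected BMKO, 1 for rapamycin in WT, 2 for the rhythm with rapamycin in BMKO and 0 for the rapamycin difference between genotypes. With edgeR it was 1 for arrhythmic against ad libitum feeding, 0 for rhythms in BMKO vehicle and 1 in night-fed tunicamycin liver.

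Leaving out 1 replicate number, the daily-mean count was 1 to 3 for arrhythmic against night, 2 to 4 for ad libitum against night and 0 to 2 for arrhythmic against ad libitum feeding, 3 to 5 for uninjected BMKO, 1 to 2 for rapamycin in WT, 0 to 3 for the rapamycin difference between genotypes, 2 to 4 for the BMKO difference between vehicle and no injection, 1 to 4 for TSKO, 1 to 4 for RPKO and 1 to 3 for AZD8055 at dawn. The rhythm-difference count was 0 to 1 for arrhythmic against night feeding, 0 to 1 for BMKO with vehicle, 1 to 2 for AZD8055 at dawn, 0 to 0 at dusk and 0 to 2 for feeding with tunicamycin. The count of members with a rhythm was 0 to 3 in night-fed WT, 1 to 2 with vehicle, 0 to 1 in uninjected BMKO, 0 to 2 in BMKO vehicle, 0 to 1 in arrhythmically fed, 1 to 2 in ad libitum, 1 to 2 in AZD8055 dawn, 1 to 3 in AZD8055 dusk, 1 to 1 in Albumin-Cre, 1 to 3 in TSKO, 1 to 3 in RPKO, 1 to 3 in night-fed tunicamycin, 1 to 2 in arrhythmically fed tunicamycin and 1 to 1 in tunicamycin with AZD8055 liver.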
